A study of Mus musculus with 18 samples.

Results

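A group of 10 genes of plasminogen activation and coagulation was followed through the dura mater of mice with and without mast cells, after stroke and in naive animals. The genes were chosen with earlier results of these data known. They were taken by name, as the probe sets that carry exactly 1 gene symbol, and each of the 10 genes, among 19937 measured, had exactly 1 such probe set: Plau, Plat, Plaur, Tfpi2, Tfpi, F3, F10, F5, F13a1 and Thbd. In wild-type dura after stroke, Tfpi2 was 2.99-fold, Plaur 2.53-fold, Plau 2.16-fold, F10 1.47-fold and Plat 1.42-fold higher than in naive wild-type dura. In mast cell-deficient mice none of the 10 passed the test after stroke, and in mast cell-engrafted mice Plau alone did, at 1.56-fold. Over all 21640 probe sets, 10.9% passed in wild-type, 0.25% in deficient and 1.11% in engrafted mice. The engrafted Plau call (limma adjusted p = 0.0404) was lost under 12 of 29 other ways of running the analysis. F3, Tfpi, Thbd, F5 and F13a1 did not pass in any single category of mice.

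The study placed male mice of 17 to 21 weeks in 3 categories, with 1 dura per Affymetrix array and no pooling. Mast cell-engrafted mice were WBB6F1-KitW/W-v animals given mast cells into a vein 8 to 10 weeks before the experiment; mast cell-deficient mice were WBB6F1-KitW/W-v without cells; wild-type mice were WBB6F1-Kit+/+. In each category 3 mice had a stroke, made by a 30 minute block of the middle cerebral artery, with the dura taken 2 days later, and 3 mice of matching age were naive. All mice were perfused with cold buffer before the dura was removed. No group had an operation without a stroke, so every stroke difference includes the effect of the operation. The Kit alleles of the deficient and the engrafted mice also act outside mast cells, on red blood cells, pigment cells and the interstitial cells of the gut, and the source of the cells given is not stated in the labels.

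Plasminogen is a circulating protein that Plau (urokinase) and Plat (tissue-type activator) cut into plasmin, the protease that dissolves fibrin and cleaves matrix proteins; Plaur is the receptor that holds urokinase at the cell surface. Coagulation runs the other way: F3 (tissue factor) starts it at a damaged vessel, F10 with its cofactor F5 produces thrombin, and F13a1 cross-links the fibrin that thrombin forms. Tfpi checks the tissue factor step, Tfpi2 is a related inhibitor that blocks plasmin and other proteases, and Thbd turns thrombin towards the anticoagulant protein C. The dura is a vascular membrane outside the blood-brain barrier, and its mast cells are known for heparin and tryptase, both of which act on clotting and fibrin.

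The deposited values were log2 probe set signals, with array medians between 7.77 and 7.91 and correlations between arrays of 1 group between 0.985 and 0.995 over all probe sets. The mean of 10 fibroblast markers lay between 11.55 and 11.88 on every array, and none was below the lower quartile of an array's signals. The mean of 8 neuron markers ran from 9.48 to 11.21, above every array median. The single markers differed: Snap25, the brightest of the 8, ran from 12.08 to 13.06 and Rbfox3 from 8.39 to 10.34. The lowest Nefl value lay within the range of the array medians. How much brain tissue the samples held was not tested. Cpa3, the mast cell carboxypeptidase, read 5.66 to 5.82 on the 6 mast cell-deficient arrays, against 8.39 to 10.90 on the 12 engrafted and wild-type arrays, so every array carried the mast cell marker level of its label. Ttr, the transthyretin gene of the choroid plexus, split the arrays into 13 with 13.03 to 13.78 and 5 with 9.03 to 10.17. The 5 low arrays were stroke array 2 of the wild-type mice, stroke array 2 and naive arrays 1 and 3 of the deficient mice, and naive array 3 of the engrafted mice. None of the 10 genes was below the lower quartile on any array.

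Promoter sequence is shown for the receptor and the inhibitor that moved most after stroke in wild-type dura, Plaur and Tfpi2, and for F3, whose stroke difference did not pass. RefSeq windows on GRCm38.p6, each from 250 bases before to 50 after a transcript start, were at hand for 7 of the 10 genes, and 2 motifs were searched on both strands. The AP-1 motif, with the letters TGANTCA, stands in capitals, written 5′ to 3′ along the strand of the gene. It reads the same on both strands.
Plaur, chr7:24462233-24462532, plus strand: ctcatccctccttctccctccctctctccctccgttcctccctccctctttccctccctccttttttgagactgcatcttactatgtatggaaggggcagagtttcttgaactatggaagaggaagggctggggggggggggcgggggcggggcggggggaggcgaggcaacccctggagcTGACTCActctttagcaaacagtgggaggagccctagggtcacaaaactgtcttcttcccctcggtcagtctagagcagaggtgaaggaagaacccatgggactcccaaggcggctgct
Tfpi2, chr6:3968326-3968625, minus strand: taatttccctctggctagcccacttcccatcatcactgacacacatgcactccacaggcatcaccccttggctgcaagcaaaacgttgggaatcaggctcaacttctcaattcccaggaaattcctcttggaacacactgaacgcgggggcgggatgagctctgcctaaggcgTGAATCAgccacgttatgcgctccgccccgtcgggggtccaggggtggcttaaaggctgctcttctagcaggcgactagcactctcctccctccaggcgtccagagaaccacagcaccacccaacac
F3, chr3:121723287-121723586, plus strand: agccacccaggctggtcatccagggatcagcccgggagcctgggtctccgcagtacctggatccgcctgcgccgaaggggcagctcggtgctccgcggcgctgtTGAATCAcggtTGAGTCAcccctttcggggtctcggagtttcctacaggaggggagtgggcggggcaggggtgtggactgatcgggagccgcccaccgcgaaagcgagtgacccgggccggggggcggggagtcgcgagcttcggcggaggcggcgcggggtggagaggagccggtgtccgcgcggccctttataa
The Plaur window held 1 match, which began at position -69 from the start site, and the Tfpi2 window held 1, at -77. This was 1 of 3 Tfpi2 windows, and the other 2 held none. The F3 window held 2 matches, at -146 and -135. No window of F5, F10, F13a1 or Tfpi held the motif, and 7.81% of all 32851 promoter windows given did. The other motif, a 10-letter NF-kappaB consensus, was in none of the members' windows and in 1.63% of all. A match in these letters is a description of the sequence, and F3 carried more of them than either gene that rose.

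Plau, the urokinase gene (chr14:20836662-20843388, GRCm38.p6), read 9.38, 9.40 and 9.21 in stroke wild-type arrays, against 8.44, 8.05 and 8.17 in naive ones. Every stroke array lay above every naive array. The difference was 1.11 ± 0.14 on the log2 scale (SE, n = 3 arrays per group, limma adjusted p = 0.000131). Engrafted mice gave 8.84, 9.08 and 8.96 after stroke, against 8.26, 8.23 and 8.48 when naive, again with no overlap, and a difference of 0.64 ± 0.14 (adjusted p = 0.0404). In deficient mice the stroke values of 8.48, 8.56 and 8.08 lay among the naive values of 8.47, 8.11 and 8.56, with a difference of -0.01 ± 0.14 (adjusted p = 0.981). The Plau call in engrafted mice was lost when any of 8 arrays was left out: engrafted stroke array 2 or 3 (adjusted p = 0.17 and 0.137), engrafted naive array 1 or 2 (0.164 and 0.205), deficient stroke array 1 or naive array 1 (0.0505 and 0.0559), and wild-type stroke array 1 or naive array 3 (0.0546 for each). It was also lost with only these groups in the fit (0.0826), with all probe sets (0.0725) and without the 5 arrays low in Ttr (0.0555).

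Plat, the gene of the tissue-type activator (chr8:22757722-22782848), had the tightest arrays of the genes that rose. Wild-type mice gave 11.38, 11.49 and 11.56 after stroke, against 10.98, 10.93 and 10.99 when naive. Its increase was small in fold but stood well clear of the spread: 0.51 ± 0.07 on the log2 scale (limma adjusted p = 0.00048). Engrafted mice had 11.15, 10.89 and 10.99 after stroke, against 10.95, 10.90 and 10.96 when naive, which overlapped (0.07 ± 0.07, adjusted p = 0.795). Deficient mice had 10.59, 10.65 and 10.75 after stroke, against 10.88, 10.71 and 10.89 when naive, with a difference of -0.16 ± 0.07 (adjusted p = 0.359). With array weights this difference was -0.22 and passed (adjusted p = 0.03). The deficient stroke arrays included the lowest Plat value of all 18 arrays.

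Plaur, the urokinase receptor gene (chr7:24460937-24475970), separated the wild-type arrays cleanly, with the lowest stroke array 1.15 log2 units above the highest naive one. It read 9.05, 9.19 and 9.29 after stroke, against 7.73, 7.89 and 7.89 in naive wild-type mice, a difference of 1.34 ± 0.13 (limma adjusted p = 1.08e-05). Neither Kit-mutant category had a Plaur stroke difference that passed. Engrafted mice gave 7.99, 8.35 and 8.42 after stroke, against 7.74, 8.08 and 7.94 when naive (0.33 ± 0.13, adjusted p = 0.3). Deficient mice gave 7.93, 7.85 and 7.99 after stroke, against 7.76, 8.20 and 8.11 when naive (-0.10 ± 0.13, adjusted p = 0.723).

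Tfpi2, the plasmin inhibitor gene (chr6:3962589-3988978), had the largest fold of the 10 in wild-type dura. Its stroke arrays read 9.55, 9.25 and 9.50, against 7.71, 8.05 and 7.82 in naive wild-type mice, a difference of 1.58 ± 0.14 (limma adjusted p = 6.68e-06). Both activators and the urokinase receptor passed in the same comparison. In engrafted mice it read 8.02, 8.22 and 8.43 after stroke, against 8.04, 7.90 and 7.90 when naive (0.27 ± 0.14, adjusted p = 0.511). In deficient mice the values were 8.18, 8.04 and 8.23 after stroke, against 7.84, 7.54 and 8.15 when naive (0.31 ± 0.14, adjusted p = 0.36). Both Kit-mutant categories had overlapping stroke and naive arrays for Tfpi2.

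**Figure D1:**
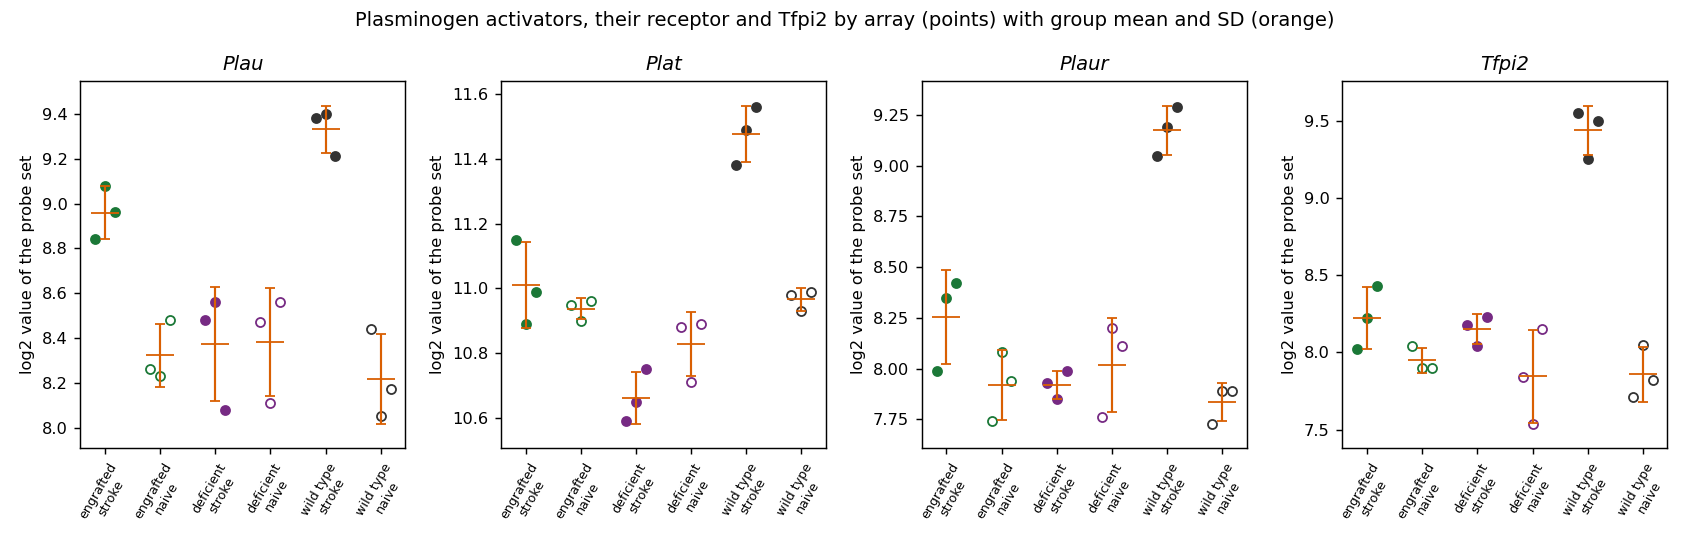
Log2 probe set signal of Plau, Plat, Plaur and Tfpi2 on each of the 18 arrays, with filled points for stroke, open points for naive mice, and the group mean ± SD (n = 3) in orange. Wild-type stroke arrays lie above every wild-type naive array in all 4 panels, while deficient stroke and naive arrays overlap in all 4.

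Tfpi (chr2:84432855-84476775), the inhibitor of the tissue factor step, did not follow its relative. Stroke arrays of wild-type mice read 10.79, 10.39 and 10.49, against 10.35, 10.68 and 10.46 in naive ones, and overlapped throughout. Averaged over the 3 categories its stroke difference was 0.07 on the log2 scale, with a 95% interval of -0.11 to 0.25 (limma adjusted p = 0.641). Engrafted arrays ran from 10.41 to 10.52 after stroke, against 10.07 to 10.45 when naive, and deficient arrays from 10.27 to 10.42 after stroke, against 10.08 to 10.69 when naive.

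F3, the tissue factor gene (chr3:121723537-121735052), varied little, and all 18 arrays lay between 11.33 and 11.70. In wild-type mice it read 11.59, 11.51 and 11.53 after stroke, against 11.66, 11.54 and 11.67 when naive, a difference of -0.08 with an interval of -0.23 to 0.07 (limma adjusted p = 0.506). Engrafted mice had 11.36, 11.39 and 11.38 after stroke, against 11.48, 11.33 and 11.47 when naive. Deficient mice had 11.45, 11.49 and 11.49 after stroke, against 11.70, 11.43 and 11.63 when naive. The average stroke difference over the categories was -0.08, with an interval of -0.17 to 0.00 (adjusted p = 0.206). With array weights the average and the deficient difference passed at -0.11 and -0.19 (adjusted p = 0.0442 and 0.0428).

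F10, the gene of factor X, which produces thrombin (chr8:13037308-13056676), was higher in all 3 wild-type stroke arrays, with 7.71, 7.81 and 7.64, against 7.12, 7.26 and 7.10 in naive ones. The difference was 0.56 ± 0.12 on the log2 scale (limma adjusted p = 0.00755). Deficient stroke arrays also lay above naive ones, with 7.61, 7.43 and 7.58, against 7.26, 7.23 and 7.18, but the difference of 0.32 ± 0.12 did not pass (adjusted p = 0.295). Engrafted mice gave 7.55, 7.72 and 8.16 after stroke, against 7.29, 7.48 and 7.56 when naive (0.37 ± 0.12, adjusted p = 0.199). Without engrafted stroke array 1 this difference was 0.50 and passed (adjusted p = 0.0426), and without the 5 arrays low in Ttr the wild-type call was lost (0.51, adjusted p = 0.068). Averaged over the categories, F10 rose by 0.41 ± 0.07 (adjusted p = 0.000972).

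F13a1 (chr13:36867178-37050244), whose product cross-links fibrin and which tissue macrophages also make, had a small difference of like size in each category. Wild-type mice gave 10.35, 10.48 and 10.26 after stroke, against 10.12, 10.05 and 10.09 when naive (0.27 ± 0.11, limma adjusted p = 0.141). Engrafted mice gave 10.61, 10.52 and 10.95 after stroke, against 10.41, 10.23 and 10.57 when naive (0.29 ± 0.11, adjusted p = 0.333). Deficient mice gave 10.51, 10.64 and 10.66 after stroke, against 10.42, 10.14 and 10.46 when naive (0.26 ± 0.11, adjusted p = 0.344). The stroke arrays lay above the naive arrays in wild-type and deficient mice and overlapped them in engrafted mice. Only the average over all 18 arrays passed, at 0.28 ± 0.07 (adjusted p = 0.0119).

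Thbd, the thrombomodulin gene (chr2:148404471-148408188), showed no difference that passed. Wild-type arrays read 11.52, 11.45 and 11.31 after stroke, against 11.47, 11.66 and 11.49 when naive, and the difference of -0.11 had an interval of -0.29 to 0.06 (limma adjusted p = 0.426). Engrafted arrays lay between 11.48 and 11.58 after stroke, against 11.45 to 11.64 when naive, and deficient arrays between 11.52 and 11.63 after stroke, against 11.38 to 11.66 when naive. The average over the categories was -0.03, with an interval of -0.14 to 0.07 (adjusted p = 0.718).

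**Figure D2:**
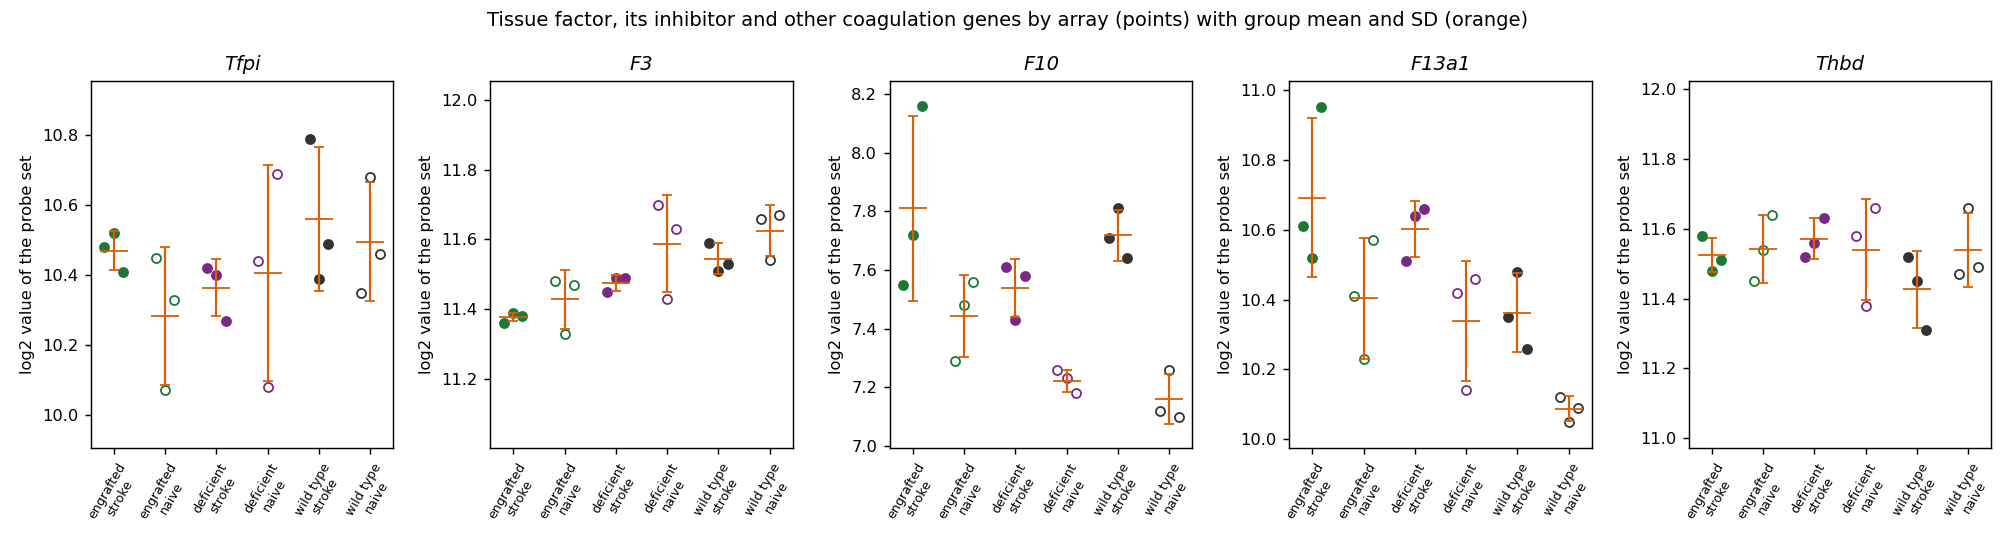
Log2 probe set signal of Tfpi, F3, F10, F13a1 and Thbd on each array, drawn as for the activators (filled for stroke, open for naive, orange for the mean ± SD, n = 3). F10 is higher in every wild-type and every deficient stroke array than in the naive arrays of the same category, while Tfpi, F3 and Thbd overlap in wild-type mice.

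F5, the gene of the factor X cofactor (chr1:164151835-164220277), had the widest spread of the 10, from 8.25 to 11.69 over the 18 arrays. Stroke arrays 1 to 3 read 10.71, 10.57 and 9.40 in engrafted, 10.90, 8.45 and 10.99 in deficient and 10.98, 8.69 and 11.69 in wild-type mice. Naive arrays 1 to 3 read 10.66, 10.91 and 8.30 in engrafted, 8.30, 11.36 and 8.25 in deficient and 10.92, 10.94 and 10.82 in wild-type mice. The 5 arrays lowest in F5, at 8.25 to 8.69, were the 5 arrays lowest in Ttr, and engrafted stroke array 3 was sixth in both. The wild-type stroke difference was -0.44 ± 0.94 (limma adjusted p = 0.818). Without those 5 arrays it was 0.44 (adjusted p = 0.504), so neither size nor direction is fixed by these arrays. Such a fit leaves 1 naive deficient array, whose spread is taken to be that of the other groups. The part of choroid plexus tissue in the F5 values was not tested further.

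**Figure D3:**
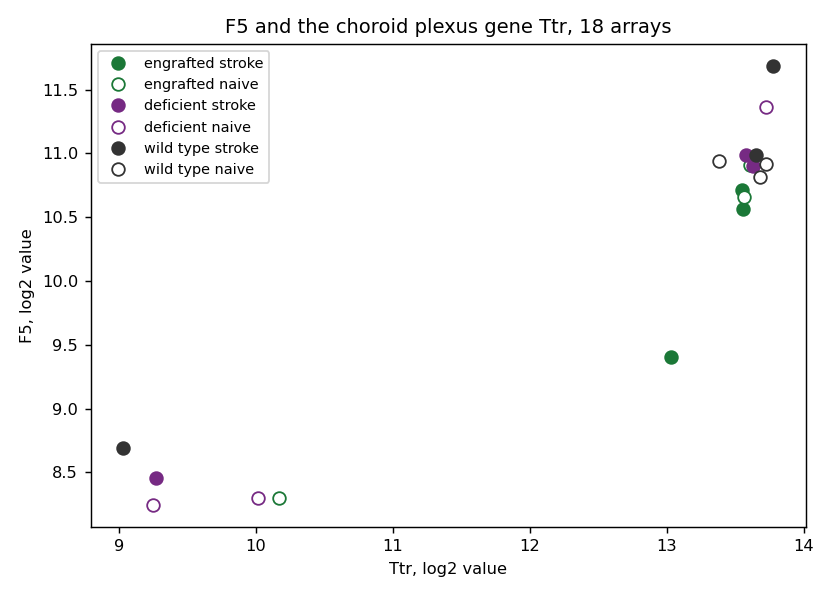
F5 against Ttr, both as log2 probe set signal, for the 18 arrays by category and condition. The 5 arrays with Ttr between 9.03 and 10.17 have F5 between 8.25 and 8.69, and the other 13 have F5 between 9.40 and 11.69.

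In wild-type dura 5 of the 10 genes were called after stroke, all higher, against 6.24% of all 21640 probe sets called higher and 10.9% called either way. The 10 were chosen with earlier results of these data known, so such shares are no test of them, here or below. The median of the 10 differences was 0.39 on the log2 scale, beside 0.01 over all probe sets. No gene was called in deficient mice, where 0.25% of all probe sets passed, 54 in number, while 2918 had an unadjusted p under 0.05; the median of the 10 was 0.01 beside 0.04. In engrafted mice 1 was called, against 0.878% of all called higher and 1.11% either way, with a median of 0.27 beside -0.01. The average of the 3 categories, which draws on all 18 arrays, called 6 of the 10 higher, against 8.05% of all probe sets called higher and 13.5% either way. Those 6 were Tfpi2 (0.72), Plau (0.58), Plaur (0.52), F10 (0.41), F13a1 (0.28) and Plat (0.14). Some averages had unequal parts: Plaur differed by 1.34 in wild-type, 0.33 in engrafted and -0.10 in deficient mice. In the same order Plau had 1.11, 0.64 and -0.01, and Tfpi2 had 1.58, 0.27 and 0.31. The Plat call rests on the wild-type arrays, where the difference was 0.51, beside 0.07 in engrafted and -0.16 in deficient mice, and its average (adjusted p = 0.0434) was lost on leaving out any array but deficient stroke 1, engrafted stroke 2, wild-type stroke 1 and deficient naive 1 or 3, with adjusted p up to 0.0865. In a whole tissue such as this, a change in the number of cells that make a transcript and a change in the amount per cell cannot be told apart.

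**Figure D4:**
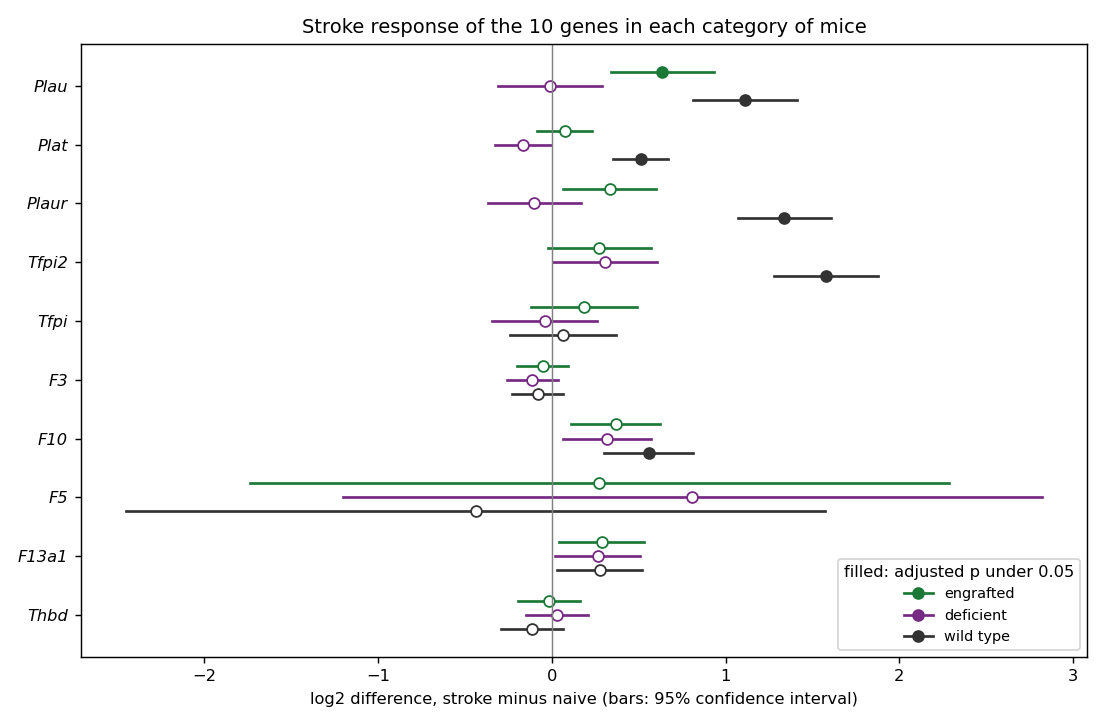
Stroke minus naive difference (log2) of the 10 genes in engrafted, deficient and wild-type mice, with 95% intervals from the limma fit; filled points passed at an adjusted p under 0.05. Tfpi2, Plaur, Plau, F10 and Plat are filled in wild-type mice, Plau alone in engrafted mice and none in deficient mice.

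After stroke, deficient dura was lower than wild-type dura in 4 of the 10 genes, against 1.97% of all probe sets called lower and 2.61% either way. Tfpi2 averaged 8.15 ± 0.10 in deficient and 9.44 ± 0.16 in wild-type mice (SD, n = 3 each), a difference of -1.29 ± 0.14 (SE, limma adjusted p = 9.94e-05). Plaur averaged 7.92 ± 0.07 in deficient and 9.17 ± 0.12 in wild-type mice, a difference of -1.25 ± 0.13 (adjusted p = 6.01e-05). Plau differed by -0.96 ± 0.14 (adjusted p = 0.0016). Plat differed by -0.81 ± 0.07, the smallest of these differences but the sixth smallest p of all 21640 probe sets (adjusted p = 3.68e-05). For these 4, and for F3 and F10, every deficient stroke array lay below every wild-type stroke array, though F3 and F10 did not pass. How many of all probe sets separate in this way was not counted, here or in the comparisons below, so separation is given as a description. F13a1 ran the other way, with 10.51 to 10.66 in deficient stroke arrays, against 10.26 to 10.48 in wild-type ones, and did not pass either (0.24 ± 0.11, adjusted p = 0.356).

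Engrafted dura after stroke was lower than wild-type dura in 3 of the 10, against 0.314% of all called lower and 0.411% either way. Tfpi2 averaged 8.22 ± 0.20 in engrafted and 9.44 ± 0.16 in wild-type mice, a difference of -1.21 ± 0.14 (limma adjusted p = 0.000677). Plaur differed by -0.92 ± 0.13 (adjusted p = 0.00255) and Plat by -0.47 ± 0.07 (adjusted p = 0.0103). The Plat call was lost without engrafted stroke array 3 (adjusted p = 0.0527) or wild-type stroke array 3 (0.0746), and all 3 calls were lost with only these groups in the fit (adjusted p = 0.092, 0.162 and 0.188 for Tfpi2, Plaur and Plat) and with the choroid plexus and neuron marker scores as covariates (0.0704, 0.0704 and 0.226). Plau was the exception among the 4 genes, with -0.37 ± 0.14 (adjusted p = 0.283), although its engrafted stroke arrays all lay below the wild-type ones. Engrafted stroke arrays also lay below the wild-type ones for F3 (-0.17 ± 0.07, adjusted p = 0.341) and above them for F13a1 (0.33 ± 0.11, adjusted p = 0.239).

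Engrafted against deficient dura after stroke called none of the 10 in limma, where 0.0277% of all probe sets passed and 1359 had an unadjusted p under 0.05. Plau was 0.58 ± 0.14 higher in engrafted mice (adjusted p = 0.441) and Plat 0.35 ± 0.07 higher (adjusted p = 0.412). For Plau, Plat and Plaur all 3 engrafted arrays lay above all 3 deficient arrays, and for F3 all 3 lay below, at 11.36 to 11.39, against 11.45 to 11.49 (-0.10 ± 0.07, adjusted p = 0.839). With these marker scores as covariates the Plau difference was 0.67 and passed (adjusted p = 0.0257).

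The test of the difference between stroke responses gave the same 4 genes for deficient against wild-type mice, against 0.342% of all probe sets called lower and 0.351% either way. The response was smaller in deficient mice by -1.44 ± 0.18 for Plaur (limma adjusted p = 0.00212), -1.27 ± 0.20 for Tfpi2 (0.00894), -0.68 ± 0.11 for Plat (0.00947) and -1.12 ± 0.20 for Plau (0.0209). The Plau call was lost with only these groups in the fit (0.06) and without any of 7 arrays: deficient stroke 3 (0.0642), deficient naive 1 or 3 (0.0822 and 0.0667), wild-type stroke 1 or 2 (0.0541 and 0.0556) and wild-type naive 2 or 3 (0.0606 and 0.0728). Those of Plaur, Tfpi2 and Plat held without each array in turn. Plat lost its call with the marker scores as covariates (0.0511). All 4 kept their direction but lost their calls without the 5 arrays low in Ttr, which leaves 1 naive deficient array (adjusted p = 0.0919 for Plaur, 0.244 for Tfpi2, 0.384 for Plat and 0.306 for Plau). For engrafted against wild-type mice 2 genes passed, against 0.097% of all called lower and 0.106% either way: Tfpi2 at -1.30 ± 0.20 (adjusted p = 0.0177) and Plaur at -1.01 ± 0.18 (adjusted p = 0.044). Tfpi2 lost this call without engrafted stroke 1, engrafted naive 2 or 3, or wild-type naive 1 or 3 (adjusted p from 0.0517 to 0.0555) and with the marker scores as covariates (0.103). Plaur kept it only on leaving out engrafted stroke 2, engrafted naive 1, deficient naive 1 or 2, or wild-type stroke 1, with an adjusted p of up to 0.162 without any of the others, and lost it with only these groups in the fit (0.102), all probe sets (0.0701), the covariates (0.102) or no low-Ttr arrays (0.267). Between engrafted and deficient responses none passed (0.00462% of all did, and 2097 had an unadjusted p under 0.05), with the largest of these genes at 0.65 ± 0.20 for Plau (adjusted p = 0.51).

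In naive dura none of the 10 differed between categories by the limma test. In deficient against wild-type mice 0.0185% of all probe sets passed, in engrafted against deficient mice 0.0185%, and in engrafted against wild-type mice 0, while 1476, 1016 and 4143 had an unadjusted p under 0.05. Plaur averaged 7.92 ± 0.17 in engrafted, 8.02 ± 0.23 in deficient and 7.84 ± 0.09 in wild-type naive mice, and Tfpi2 averaged 7.95 ± 0.08 in engrafted, 7.84 ± 0.30 in deficient and 7.86 ± 0.18 in wild-type naive mice (SD, n = 3 each). Naive arrays of all 3 categories overlapped for Plau, Plaur and Tfpi2. For Plat the 3 naive deficient arrays lay below the 3 naive engrafted and the 3 naive wild-type arrays, with a difference of -0.14 ± 0.07 between deficient and wild-type mice (limma adjusted p = 0.737). In naive mice F13a1 was also higher in every engrafted and every deficient array than in the wild-type arrays. F10 was higher in every engrafted array than in the others, and F3 lower in every engrafted array than in the wild-type ones. None passed the threshold, and how many of all probe sets separate in this way was not counted.

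By group mean, Plau ran from wild-type stroke (9.33 ± 0.10) through engrafted stroke (8.96 ± 0.12) to deficient naive (8.38 ± 0.24), deficient stroke (8.37 ± 0.25), engrafted naive (8.32 ± 0.14) and wild-type naive (8.22 ± 0.20), and among the last 4 each step was smaller than the larger SD of the neighbours. Plat ran from wild-type stroke (11.48 ± 0.09) through engrafted stroke (11.01 ± 0.13), wild-type naive (10.97 ± 0.04), engrafted naive (10.94 ± 0.03) and deficient naive (10.83 ± 0.10) to deficient stroke (10.66 ± 0.08), where the steps from the second to the fourth were smaller than the larger SD of the neighbours. For Plaur and Tfpi2 wild-type stroke stood alone at the top. Among the other 5 groups each step was smaller than the larger SD, except between engrafted stroke (8.25 ± 0.23) and deficient naive (8.02 ± 0.23) for Plaur and between deficient stroke (8.15 ± 0.10) and engrafted naive (7.95 ± 0.08) for Tfpi2.

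Of 38 other listed genes of the pathway, 33 had a probe set with 1 symbol. In wild-type dura after stroke 5 of these 33 rose and 2 fell, where 6.24% of all probe sets were called higher and 10.9% either way, and the median was 0.13 beside 0.01 over all. None of the 33 was called in engrafted mice, with a median of -0.02, or in deficient mice, with a median of 0.11. Procr, the receptor that presents protein C to thrombin and Thbd, rose by 1.08 ± 0.11 on the log2 scale (limma adjusted p = 2.30e-05). Anxa2, which gathers plasminogen and Plat at the cell surface, rose by 0.66 ± 0.10 (adjusted p = 0.000492). Serpinb2, an inhibitor of urokinase, rose by 0.76 ± 0.16 (adjusted p = 0.00763), although its signal was below the lower quartile on 14 of 18 arrays. Vtn, the adhesion protein vitronectin that the urokinase receptor binds, had a log2 difference of -0.53 ± 0.09 and fell (adjusted p = 0.00222).

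Procr was also lower in deficient than in wild-type dura after stroke, by -0.77 (limma adjusted p = 0.00148), and lower in engrafted than in wild-type dura, by -0.57 (adjusted p = 0.0388), and its stroke response differed between deficient and wild-type mice by -0.99 (adjusted p = 0.00973). Anxa2 was -0.39 lower in deficient than in wild-type stroke dura (adjusted p = 0.0424). Procr and Anxa2 were the only 2 of the 33 called in deficient against wild-type stroke dura, where 1.97% of all probe sets were called lower. Procr was the only 1 called in engrafted against wild-type stroke dura (0.314% of all called lower). It was also the only 1 in the difference of responses between deficient and wild-type mice (0.342% of all called lower). Averaged over the categories 7 of 33 rose and 3 fell, where 8.05% of all probe sets were called higher and 13.5% either way, and the median was 0.07 beside 0.01 over all. One that rose was Pros1, the gene of the protein C cofactor, at 0.33 ± 0.06 (adjusted p = 0.00295).

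**Figure D5:**
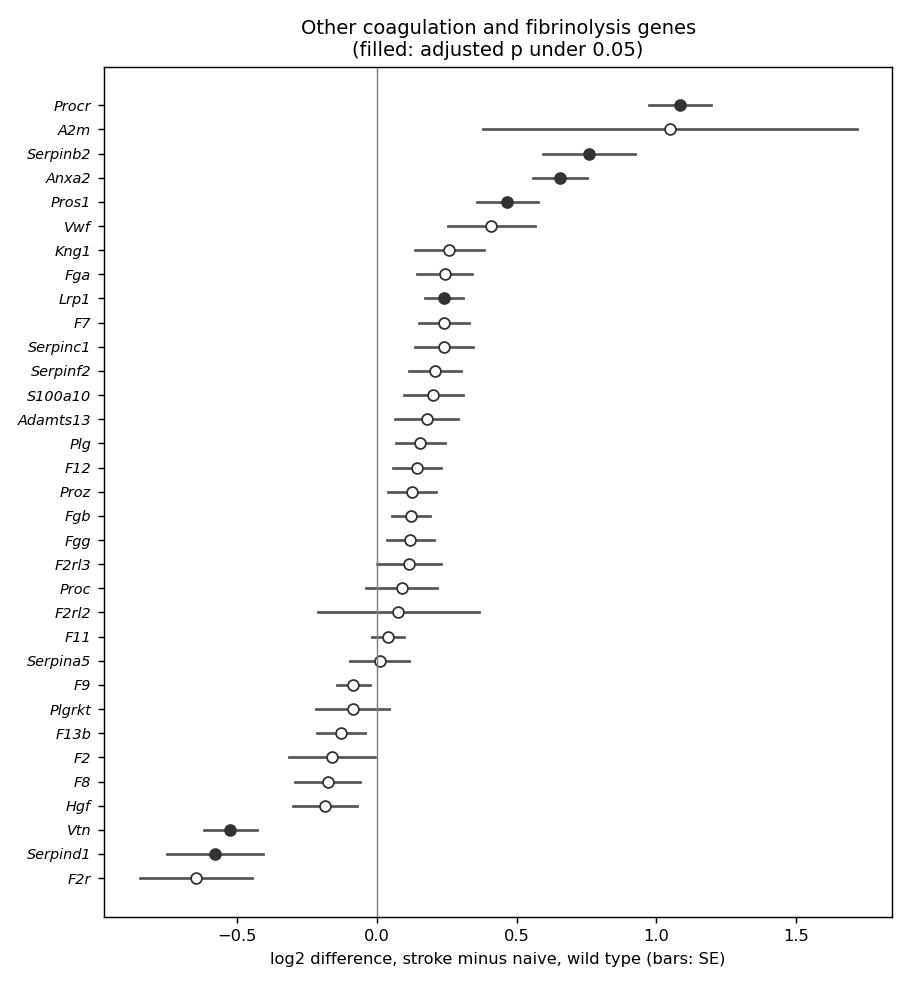
Stroke minus naive difference (log2, ± SE) in wild-type dura for the 33 other genes of plasminogen activation and coagulation; filled points passed at an adjusted p under 0.05. Procr has the largest increase at 1.08, and Vtn is among the 2 that fell.

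Markers of other cells moved with the same comparisons, in which 10.9% of all probe sets were called either way in wild-type, 1.11% in engrafted and 0.25% in deficient mice. Of 8 measured monocyte markers 6 rose in wild-type dura after stroke, 4 in engrafted and none in deficient dura. Their mean signal lay between 8.94 and 9.55 in engrafted stroke arrays, against 8.21 to 8.66 in naive ones. It lay between 8.60 and 8.76 in deficient stroke arrays, against 8.09 to 8.36 in naive ones, and between 9.39 and 9.42 in wild-type stroke arrays, against 8.43 to 8.65 in naive ones. Of 10 neutrophil markers 4 were called higher in wild-type dura and none in the other categories. Their median stroke difference was 0.82 in engrafted, 0.36 in deficient and 0.38 in wild-type mice. Their means were 8.27 to 9.17 in engrafted stroke arrays, against 7.61 to 8.39 when naive, 7.86 to 8.09 in deficient stroke arrays, against 7.24 to 7.55 when naive, and 8.44 to 8.96 in wild-type stroke arrays, against 7.87 to 8.36 when naive. Of 8 granulocyte precursor markers 2 rose in engrafted dura and none in the other categories, with means of 8.86 to 10.18 in engrafted stroke arrays, against 7.81 to 8.54 when naive. Their means were 8.16 to 8.44 in deficient stroke arrays, against 7.46 to 7.66 when naive, and 8.16 to 9.41 in wild-type stroke arrays, against 8.04 to 8.23 when naive.

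Neuron markers went down in the same wild-type comparison: 4 of 8 fell, with a median of -0.82, and none was called in the other categories, where the median was -0.10 in engrafted and -0.31 in deficient mice. Their means were 10.21 to 10.93 in engrafted stroke arrays, against 10.56 to 10.80 when naive, 9.94 to 10.66 in deficient stroke arrays, against 10.30 to 11.21 when naive, and 9.48 to 9.92 in wild-type stroke arrays, against 10.34 to 10.87 when naive. Wild-type stroke arrays were thus low in neuron transcripts as well as high in Plau, Plaur, Plat and Tfpi2. With the choroid plexus and neuron marker scores as covariates the wild-type stroke differences were 0.83 for Plau, 1.41 for Plaur, 0.47 for Plat, 1.36 for Tfpi2 and 0.61 for F10. All 5 still passed (limma adjusted p from 0.000634 to 0.0392). Without covariates they were 1.11, 1.34, 0.51, 1.58 and 0.56 in the same order. The neuron score itself separated wild-type stroke arrays (-0.95 to -0.52) from naive ones (-0.09 to 0.43), so this fit cannot tell tissue make-up from the stroke response. No monocyte or granulocyte score was a covariate.

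Of 9 resident macrophage markers 1 rose and 3 fell in wild-type dura, 1 fell in engrafted and none was called in deficient dura. Among 10 dural fibroblast markers, 2 rose and 1 fell in wild-type dura, 1 rose in engrafted and none was called in deficient dura. No endothelial marker of 10 and no platelet marker of 7 was called in any single category, and in the average of the 3 categories 2 of each list rose. In that average 8 of 8 monocyte, 8 of 10 neutrophil and 7 of 8 granulocyte precursor markers rose and 4 of 8 neuron markers fell. Of all probe sets, 8.05% were called higher and 13.5% either way in the average. The part of monocytes, neutrophils and granulocyte precursors in the differences of Plau, Plaur, Plat, Tfpi2, F10 and F13a1 was not tested.

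For each gene that was called after stroke, the 3 other genes with the closest pattern over the 18 arrays were found as the smallest mean absolute gap between log2 values centred on their own means, a description that carries no test. Plau lay closest to Msr1, Anxa1 and Cd44, at gaps of 0.0914, 0.109 and 0.109, where its own mean absolute deviation was 0.365; Msr1 is also on the monocyte list. Plaur lay closest to Slc39a14, Has2 and Tmem100, at 0.14, 0.151 and 0.151, with an own deviation of 0.374. Tfpi2, with an own deviation of 0.418, lay closest to Tnfrsf23, Hmox1 and Plaur, at 0.137, 0.152 and 0.169. Plaur was thus the only one of the 10 among another's nearest genes. F13a1 (own deviation 0.185) lay closest to C1qc, Cd37 and Tnfrsf14, at 0.0684, 0.0815 and 0.0868, and F10 (0.222) to Mthfd1l, AB124611 and Clspn, at 0.0859, 0.0877 and 0.0883. Plat, at 0.188, had no close neighbour: Nupr1, Lsr and Krt80 stood at 0.102, 0.104 and 0.104.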

How the data were processed

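The authors deposited log2 values per probe set, from Affymetrix gene arrays of 18 mice; per the submitters' processing notes RMA, affy and R 3.0.0 were among the tools, with no role stated, and background correction and batches are not given in the sources used here. Log2 array summaries compress the differences of dim probe sets. The 10 genes and the gene lists were chosen with earlier results of these data known. Of 34760 probe sets, 21640 had exactly 1 symbol in the platform annotation and were tested, 1321 had several and 11799 none. No filter was set on low values. limma 3.58.1 in R 4.3.3 fitted 1 mean per group over all 18 arrays (12 residual and 3.41 prior degrees of freedom), with Benjamini-Hochberg adjustment within each of 13 comparisons over all tested probe sets and a threshold of 0.05. Fold is 2 to the power of the log2 difference. The fit was tested on simulated data. The named genes were the 10, up to 4 listed pathway genes with the smallest p in each stroke comparison, and the 3 closest genes in pattern. Cpa3, Ttr and the neuron markers Snap25, Rbfox3 and Nefl fall outside that rule. Each array is a separate animal. Precision is limited by having 3 arrays per group, and the median SE was 0.10 for a stroke difference and 0.14 for a difference of 2 responses. Alternatives left out each of 18 arrays and changed 11 other choices. Promoter windows and gene positions came from RefSeq, GRCm38.p6.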

Additional observations from a re-analysis of the deposited data

Results flagged for a closer look

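These results were picked out because the stroke response differed between categories of mice in limma's test of the difference itself (adjusted p under 0.05). Between deficient and wild-type mice the log2 differences of the responses were -1.12 for Plau, -1.44 for Plaur, -0.68 for Plat and -1.27 for Tfpi2. Between engrafted and wild-type mice they were -1.01 for Plaur and -1.30 for Tfpi2. With 3 arrays per group, no test for a single outlying array was made.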

How the results depend on the processing

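The 25 called differences of the 10 genes gave 719 values under the alternatives: 636 passed in the same direction, 83 no longer passed and 0 changed sign. The wild-type stroke calls of Plau, Plaur and Tfpi2 and the 4 calls of deficient against wild-type dura after stroke held under all 29. Where a count moved: a minimum of 1.5-fold left 3 calls in wild-type mice and 1 in the average; array weights called 2 in deficient mice; in engrafted mice 0 passed with the replicate number as a block, with only the groups compared, with all probe sets or without the 5 arrays low in Ttr, and 0 to 2 on leaving out 1 array. With the choroid plexus and neuron marker scores as covariates 1 gene passed for engrafted against deficient dura after stroke, and 0 for engrafted against wild-type dura, as with only these groups. Leaving out the 5 low-Ttr arrays, which keeps 1 naive deficient array, gave 0 differing responses for deficient against wild-type mice. For engrafted against wild-type responses the count was 1 with only the groups compared, all probe sets or no low-Ttr arrays, 0 with the covariates, and 0 to 2 on leaving out 1 array. The cause of these changes was not tested. Same-numbered arrays of different groups had a mean correlation of deviations of -0.0548 (-0.609 to 0.603), against 0.0261 (-0.564 to 0.603) for arrays of other numbers. This gave no sign that the replicate numbers pair the samples. Whether arrays of 1 number share a batch cannot be told from it. With the block, the Plau calls in engrafted mice (adjusted p = 0.0698) and for deficient against wild-type responses (0.0502) were lost, and no other of the 25.

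No difference that changed sign was called in either setting. With the covariates, F5 was 0.42 and Tfpi -0.18 in wild-type mice, and Tfpi -0.034 on average. Without the low-Ttr arrays, F5 was -0.55 in engrafted, -0.42 in deficient and 0.44 in wild-type mice and -0.18 on average; Thbd was 0.032 in engrafted mice and 0.034 on average; and F3, Plau and Tfpi were 0.034, 0.17 and 0.27 in deficient mice. With array weights, Thbd was 0.00196 in engrafted mice, and Plau, Plaur and Thbd were 0.021, 0.031 and -0.011 in deficient mice. On leaving out 1 array, F5 ran from -0.55 to 0.75 in engrafted mice, from -1.05 to 0.44 in wild-type mice and from -0.061 to 0.56 on average; Tfpi from -0.20 to 0.10 in deficient and -0.051 to 0.16 in wild-type mice; Thbd from -0.064 to 0.032 in engrafted and -0.048 to 0.093 in deficient mice; and Plau from -0.14 to 0.14 in deficient mice.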
